A study of Mus musculus with 21 samples.

Results

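The genes described here are those of the embryonic red blood cell that were looked up by symbol in both count tables of the series: the alpha-like globins Hba-x, Hba-a1 and Hba-a2, the beta-like globins Hbb-y and Hbb-bh1, the heme enzyme Alas2, and the erythroid transcription factors Klf1 and Gata1. Of these 8 genes, 7 had a row in both tables, out of 24594 genes in all, and Hba-a2 had no row of its own. They were read as a measure of blood in tissue that was not sorted. In the genotype table, pharyngeal arches 2 and 3 (PA2 and PA3) came by dissection at E10.5 (E stands for the embryonic day). The donors were WT (wild-type) embryos or HIRE1del/del embryos (HIRE1del), which lack the regulatory region HIRE1 on both chromosomes after a CRISPR/Cas9 deletion made in C57Bl/6J zygotes. In the stage table, cranial neural crest cells labelled by Wnt1::Cre;ROSA RFP were sorted from WT embryos, at E10.5 out of PA2 and later, at E12.5 and E14.5, out of the outer ear (pinna). Each of the 7 groups had 3 libraries, giving 12 libraries of dissected arches and 9 of sorted cells. The background was mixed C57Bl/6J; CD1, and each pool held embryos of either sex. The Wnt1::Cre reporter marks neural crest derivatives and not blood cells. The labels name cranial neural crest cells for both tables, but no sorting is stated for the genotype table.

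At this stage of mouse development most circulating red cells are primitive erythroblasts. They arise in the yolk sac, keep their nucleus while they circulate, and fill with embryonic hemoglobin made from the zeta-like chain of Hba-x with the adult alpha chain of Hba-a1 and Hba-a2, and from the beta-like chains of Hbb-y and Hbb-bh1. Later red cells from the fetal liver carry adult beta chains, so that Hba-x, Hbb-y and Hbb-bh1 give way to Hba-a1, Hba-a2, Hbb-bs and Hbb-bt. Alas2 makes the rate-limiting step of heme synthesis in red cells. Gata1 is the zinc finger factor on which red cell and platelet lineages depend, and Klf1 binds CACCC sites and activates many red cell genes.

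The 5 globin genes lie in 2 clusters (positions from GENCODE M21, build GRCm38). Hba-x (chr11:32276400-32278116), Hba-a1 (chr11:32283511-32284465) and Hba-a2 (chr11:32296489-32297298) follow each other on the plus strand of chromosome 11. Hbb-bh1 (chr7:103841637-103843164) and Hbb-y (chr7:103851749-103853216) lie on the minus strand of chromosome 7. Klf1 (chr8:84901928-84905291) is on the plus strand, and Gata1 (chrX:7959260-7978071, minus) and Alas2 (chrX:150547375-150570638, plus) are both on chromosome X. The exonic length given for the row named Hba-a1 was 1479 bases, which equals the exons of Hba-a1 (812 bases) and Hba-a2 (667 bases) together, while for the other 6 genes it equalled the gene's own exons. Of the 50-base windows in Hba-a1 transcripts, 72.3% also occurred in Hba-a2 transcripts. The row named Hba-a1 was therefore read as the adult alpha-like genes without a division between them, and its level is uncertain in that respect. No 50-base window of the other 6 genes was shared with another gene. The only overlaps with other genes were those of Alas2 with Apex2 and Mir3620, whose reads cannot be told apart by strand in an unstranded library.

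The sequences just before the RefSeq starts of 5 genes are shown because Gata1 and Klf1, which bind GATA and CACCC letters, are among the members. A link between these letters and the levels was not tested. Each runs 5′ to 3′ on the gene's strand, from 150 to 31 bases before the RefSeq start (build GRCm38.p6). Capitals mark 3 motifs, searched on both strands: GATAA or GATAG after an A or a T (GATA motif), CACCC and CCAAT.
Hba-a2 (chr11:32296342-32296461, plus): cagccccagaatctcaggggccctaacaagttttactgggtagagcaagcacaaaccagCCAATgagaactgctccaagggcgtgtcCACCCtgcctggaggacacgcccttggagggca
Hbb-y (chr7:103853238-103853357, minus): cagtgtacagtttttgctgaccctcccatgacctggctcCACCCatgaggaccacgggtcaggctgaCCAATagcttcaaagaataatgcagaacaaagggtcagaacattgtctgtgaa
Alas2 (chrX:150547267-150547386, plus): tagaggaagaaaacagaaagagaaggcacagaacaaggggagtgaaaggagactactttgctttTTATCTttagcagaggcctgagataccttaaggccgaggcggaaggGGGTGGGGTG
Klf1 (chr8:84901832-84901951, plus): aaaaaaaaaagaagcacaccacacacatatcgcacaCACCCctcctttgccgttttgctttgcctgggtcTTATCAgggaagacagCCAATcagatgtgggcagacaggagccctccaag
Gata1 (chrX:7967941-7968060, minus): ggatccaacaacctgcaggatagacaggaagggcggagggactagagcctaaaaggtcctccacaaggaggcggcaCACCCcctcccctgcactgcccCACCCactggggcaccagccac

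CACCC was found in this window of 7 of the 7 genes with a RefSeq entry, and in 31.6% of all 32851 promoters of the same length. CCAAT was found in 4 of 7, against 21.2% of all promoters, and a GATA motif in 3 of 7 (Hba-x, Alas2 and Klf1), against 13.5%. The Hba-a1 and Hba-a2 windows were equal in 117 of 117 aligned bases, with an offset of 3, so both bring the same CACCC and CCAAT matches into these counts. The windows of Hba-x and Hba-a1, which are not printed, lie wholly within exons of GENCODE M21 (120 of 120 bases), since the RefSeq and GENCODE starts of these genes differ, so there they do not lie before the gene. In Alas2 12 and in Klf1 24 of the 120 bases are exonic in GENCODE M21. The Gata1 window lies within the GENCODE M21 span of Gata1 (chrX:7959260-7978071), with 0 of its 120 bases exonic. It does not lie before the gene there either. These matches are letters in a window and not shown sites of binding.

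Total counts were 25.8 to 32.2 M per library of dissected arches and 25.8 to 49.1 M per library of sorted cells, and levels are given as CPM, each count relative to a common library size after TMM scaling. Calls rest on edgeR's quasi-likelihood test with Benjamini-Hochberg adjustment over all genes tested, at a threshold of 0.05. The libraries came from separate biological replicates according to the labels. Hoxa2, the gene that HIRE1 acts on, followed the genotype labels, with 73.4, 77.2 and 84.2 CPM in PA2 WT and 5.75, 4.75 and 7.09 CPM in PA2 HIRE1del (13.3-fold lower in edgeR's fit, adjusted p = 1.56e-09). In the tissue check, 12 of 12 neural crest mesenchyme markers were present in each group, and their summed level was 1270 to 1394 CPM in PA2 WT, 886 to 1067 CPM in PA3 WT and 1932 to 2228 CPM in the sorted E10.5 cells. The genotype libraries also held marker sums of 302 to 844 CPM for epithelium and 384 to 497 CPM for endothelium, against 11.9 to 14.1 and 18.6 to 22.6 CPM in the sorted E10.5 cells.

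The main difference among these genes was between arches: the 7 members were 6.83- to 10.0-fold higher in PA3 than in PA2 of WT embryos. Hba-x, the embryonic alpha-like globin, stood at 616, 860 and 619 CPM in the 3 PA2 WT libraries and at 4739, 8432 and 5690 CPM in the 3 PA3 WT libraries. In HIRE1del embryos it stood at 710, 599 and 985 CPM in PA2 and at 8853, 5310 and 7184 CPM in PA3. The lowest PA3 library thus lay above the highest PA2 library in each genotype. The fitted difference of Hba-x was a log2 fold change of 3.17 ± 0.26 (SE, n = 3 against 3, edgeR adjusted p = 1.71e-06) in WT and 3.22 ± 0.26 (adjusted p = 1.53e-06) in HIRE1del.

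Hbb-y, the embryonic beta-like globin and the member with the highest level, followed the same order. It was at 608, 1029 and 932 CPM in PA2 WT and at 4981, 10595 and 7148 CPM in PA3 WT. In HIRE1del it was at 839, 661 and 1595 CPM in PA2 and at 10552, 6042 and 10428 CPM in PA3. No PA2 library reached the level of a PA3 library. Hbb-y was 8.85-fold higher in PA3 of WT (95% interval 4.94 to 15.8, edgeR adjusted p = 2.90e-05) and 8.73-fold higher in PA3 of HIRE1del (4.88 to 15.6, adjusted p = 3.11e-05).

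Hbb-bh1, the other embryonic beta-like chain, was at 78.1, 177 and 184 CPM in PA2 WT and at 732, 1848 and 1143 CPM in PA3 WT. In HIRE1del it was at 141, 103 and 294 CPM in PA2 and 1611, 1057 and 2004 CPM in PA3. It had the widest spread within a group of the 7 genes, and the arches were still apart, with an 8.46-fold difference in WT (4.13 to 17.3, edgeR adjusted p = 0.00018). The row named Hba-a1, the adult alpha chain, was at 179, 274 and 173 CPM in PA2 WT against 1596, 2766 and 1931 CPM in PA3 WT, and at 222, 179 and 370 CPM in PA2 HIRE1del against 2894, 1635 and 2328 CPM in PA3 HIRE1del. Its log2 fold change between arches was 3.33 ± 0.31 in WT (edgeR adjusted p = 4.45e-06).

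Alas2, the heme enzyme, was at 34.9, 43.3 and 36.8 CPM in PA2 WT and at 248, 431 and 275 CPM in PA3 WT. In HIRE1del it was at 37.8, 30.7 and 46.6 CPM in PA2 and at 412, 283 and 347 CPM in PA3. Its arch difference was 8.29-fold in WT (5.89 to 11.7) and 9.05-fold in HIRE1del (6.42 to 12.8), with edgeR adjusted p of 6.82e-07 and 4.52e-07, and the arches did not overlap. Klf1 was at 4.80, 7.68 and 5.14 CPM in PA2 WT and 39.5, 66.1 and 44.9 CPM in PA3 WT, and at 6.73, 4.79 and 8.24 CPM in PA2 HIRE1del and 70.9, 43.2 and 55.3 CPM in PA3 HIRE1del. Gata1 was the lowest of the 7 genes, at 3.29, 5.12 and 3.63 CPM in PA2 WT, 23.6, 36.9 and 21.9 CPM in PA3 WT, 3.34, 2.42 and 4.47 CPM in PA2 HIRE1del, and 35.9, 24.7 and 29.4 CPM in PA3 HIRE1del. Both transcription factors therefore followed the globins: Klf1 was 8.53-fold higher in PA3 of WT (5.65 to 12.9) and Gata1 6.83-fold (4.58 to 10.2), with edgeR adjusted p of 2.11e-06 and 3.70e-06.

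**Figure D1:**
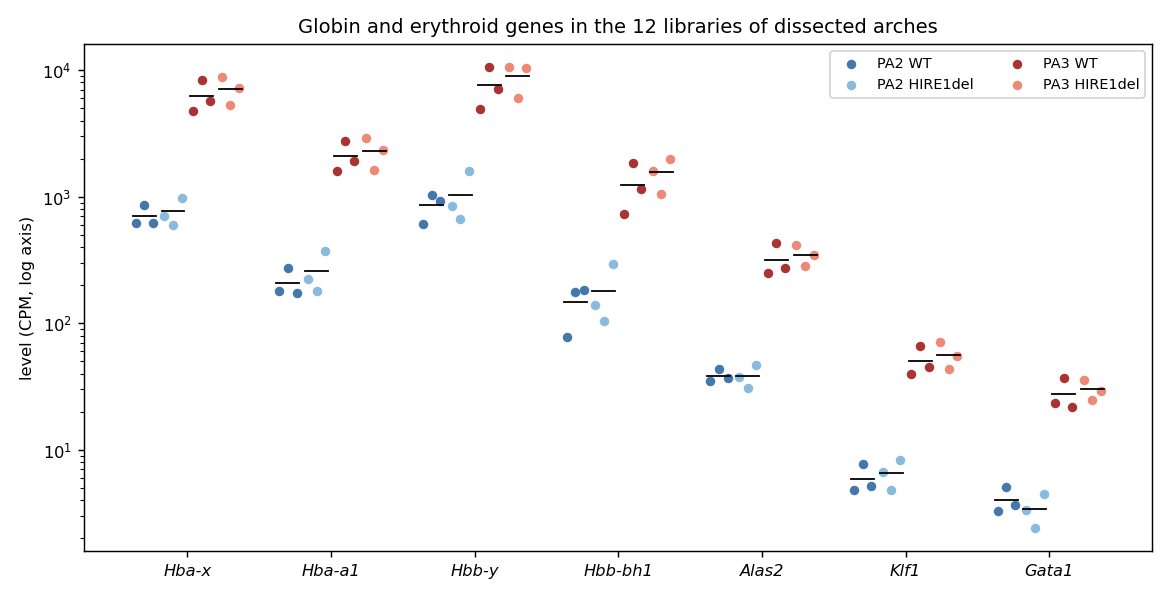
Level of the 7 genes in CPM (log axis) in each of the 12 libraries of dissected arches, 3 points a group, with a bar at the group mean. For each gene the PA3 libraries (red) lie above the PA2 libraries (blue), and the WT and HIRE1del points of an arch overlap.

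Counted over the members, 7 of 7 were called higher in PA3 in WT and 7 of 7 in HIRE1del. Of all 14383 genes tested, 19.1% were called higher and 17.4% lower in PA3 of WT, and 18.7% were called higher and 14.7% lower in PA3 of HIRE1del. The median log2 fold change of the members was 3.09 in WT and 3.13 in HIRE1del, while that of all genes tested was -0.00065 and -0.00015. In bulk tissue, more red cells in PA3 and more of these RNAs per red cell cannot be told apart, and the part of blood left in the vessels at dissection was not tested. Summed over the 4 globin rows, the level was 1481 to 3244 CPM in the 6 PA2 libraries and 12048 to 23910 CPM in the 6 PA3 libraries. In PA3 WT, Hbb-y ranked 2nd and Hba-x 4th of all 14383 genes by CPM, and in PA2 WT they ranked 66th and 115th.

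Per kilobase of exon, which allows genes to be compared, the order in PA3 WT was Hbb-y (11966 ± 4472 CPM per kb, SD, n = 3), Hba-x (6703 ± 2044), Hbb-bh1 (2025 ± 921), Hba-a1 (1418 ± 407), Alas2 (132 ± 41.1), Klf1 (32.8 ± 9.17) and Gata1 (11.3 ± 3.38). PA2 WT gave the same order of means, from Hbb-y at 1353 ± 348 to Gata1 at 1.65 ± 0.399 CPM per kb. Across libraries, the neighbours Hbb-bh1 and Hba-a1 overlapped in their values in both arches of WT. Hbb-y and Hba-x did so in PA3 WT and not in PA2 WT, and the other neighbours were apart. Compared within each WT library of either arch, Hbb-bh1 stood above Hba-a1 and Hbb-y above Hba-x. The Hba-a1 length covers 2 genes, so that its value per kilobase is a mean over both. Of the 50-base windows, 72.3% in Hba-a1 and 89.3% in Hba-a2 transcripts are shared. How such reads were counted is not known, so the place of this row in the order is uncertain.

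The question of the genotype table is what the loss of HIRE1 changes in each arch, and for these genes no change was called. In PA2, 0 of 7 members were called between HIRE1del and WT, against 0.438% of all genes tested, and in PA3 0 of 7, against 0.216%. By edgeR at an unadjusted p under 0.05 the count was also 0 in both arches, and by DESeq2 and limma-voom 0 members were called as well. The log2 fold changes ran from -0.23 (Gata1) to 0.30 (Hba-a1) in PA2 and from 0.12 (Hba-a1) to 0.33 (Hbb-bh1) in PA3, beside a median of all genes of -0.0083 and -0.0019. The intervals are wide for the globins and narrower for Alas2. The ratio of HIRE1del to WT in PA2 had a 95% interval of 0.751 to 1.60 for Hba-x, 0.704 to 2.06 for Hbb-y, 0.624 to 2.40 for Hbb-bh1 and 0.715 to 1.399 for Alas2. In PA3 it was 0.777 to 1.65 for Hba-x, 0.696 to 2.03 for Hbb-y, 0.649 to 2.42 for Hbb-bh1 and 0.801 to 1.49 for Alas2. These data therefore do not exclude a change of Hbb-bh1 by a factor of 2.40 in either arch, whereas a change of Alas2 above 1.49-fold lies outside both intervals.

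The effect of HIRE1 loss was not shown to differ between the arches for any member. The difference of the genotype effects, PA2 minus PA3, had log2 values from -0.36 (Gata1, 95% interval -1.17 to 0.46) to 0.18 (Hba-a1, -0.74 to 1.10), with 0 of 7 called by edgeR (0 at an unadjusted p under 0.05), against 0.0487% of all genes tested. The order of the 4 group means was PA3 HIRE1del, PA3 WT, PA2 HIRE1del and PA2 WT for Hba-x, Hba-a1, Hbb-y, Hbb-bh1 and Klf1, with Alas2 and Gata1 higher in PA2 WT than in PA2 HIRE1del, and neighbours of the same arch did not differ beyond their spread.

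**Figure D2:**
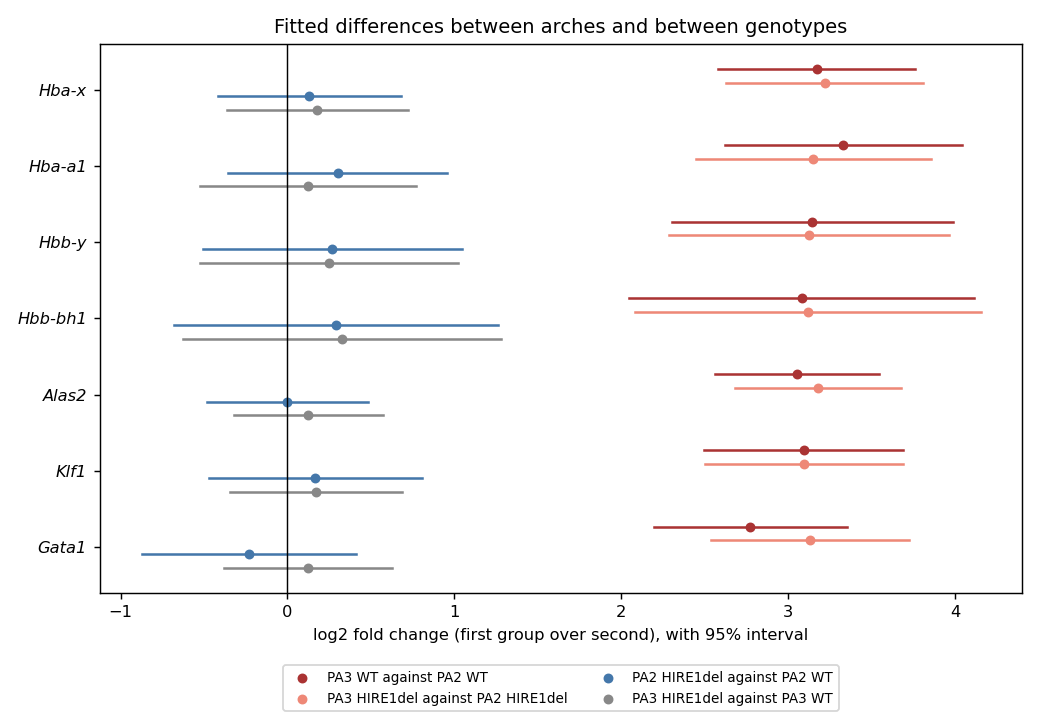
Log2 fold change (horizontal axis) of each of the 7 genes for the arch comparisons (red and pink) and the genotype comparisons (blue and grey), with points at edgeR's estimate and bars for the 95% interval. The arch differences lie between 2.77 and 3.33, and each genotype interval covers 0.

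Within groups, replicate libraries differed in these genes more than in most genes, and they did so together. The biological coefficient of variation, the spread between replicates as edgeR estimates it, was 0.351 for Hbb-bh1, 0.283 for Hbb-y, 0.240 for Hba-a1, 0.201 for Hba-x and 0.170 for Alas2, against a median of 0.0829 over all genes tested. The library PA2 HIRE1del replicate 3 was the highest of its group for 7 of 7 members, and PA2 HIRE1del replicate 2 the lowest for 7 of 7. PA3 WT replicate 2 was the highest for 7 of 7 and PA3 HIRE1del replicate 2 the lowest for 7 of 7. As a description over the 12 libraries, the log2 deviations from the group mean correlated between pairs of members with r from 0.788 (Hbb-bh1 with Gata1) to 0.983 (Hba-x with Hba-a1). The points share library and scaling.

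Among the members, a difference within the correlation was visible between the beta-like and the other genes. Hbb-y and Hbb-bh1 deviated together (r = 0.971), as did Hba-x and Alas2 (r = 0.974) and Klf1 and Gata1 (r = 0.968), while Hbb-bh1 with Hba-x gave r = 0.809. In PA2 WT replicate 3, for example, Hbb-bh1 and Hbb-y were 0.43 and 0.16 log2 units above their group mean, and Hba-x and Hba-a1 were 0.16 and 0.24 log2 units below theirs (-0.16 and -0.24). Hbb-bh1 moved by the largest amounts, from -0.80 in PA2 WT replicate 1 to 0.86 in PA2 HIRE1del replicate 3.

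**Figure D3:**
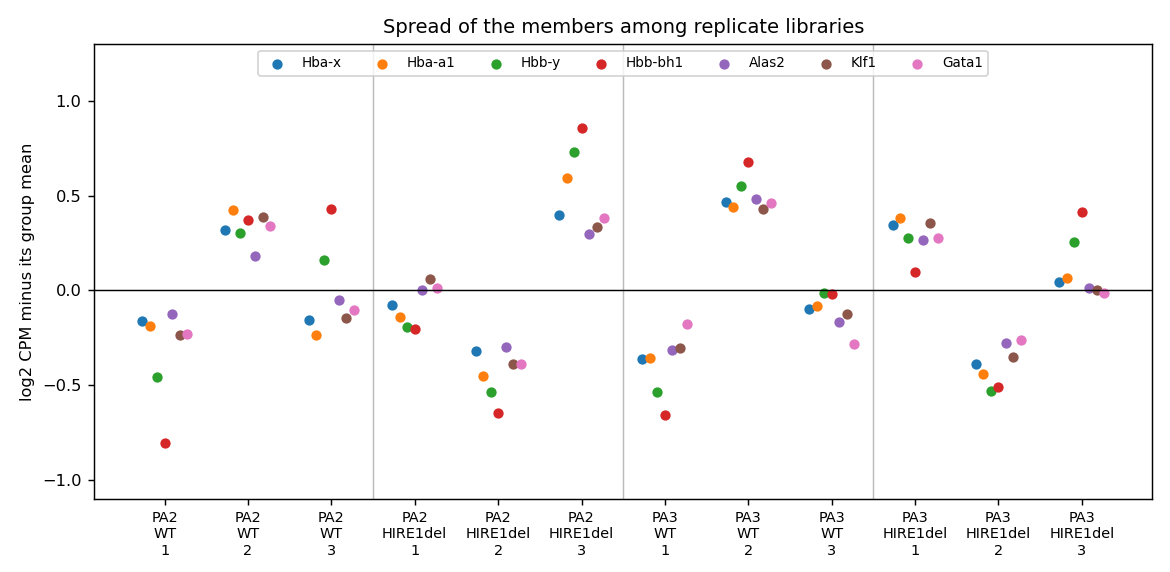
Log2 CPM minus the group mean (vertical axis) for each of the 7 genes in each of the 12 libraries of dissected arches, with grey lines between groups. The points of a library lie together above or below 0 in most libraries, and Hbb-bh1 (red) lies farthest from 0 in PA2 WT replicate 1 (-0.80) and PA2 HIRE1del replicate 3 (0.86).

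Libraries of PA2 and PA3 with the same genotype and number also leaned the same way, in 6 of 6 such pairs for Alas2, 5 of 6 for Hba-x, Hba-a1, Klf1 and Gata1 and 4 of 6 for Hbb-y and Hbb-bh1. The members deviated together, so these counts are not independent of each other. Such pairs also deviated together over all genes (r = 0.213 to 0.382), so the lean is not particular to these genes. Compared within these pairs, PA3 stood 7.29- to 12.46-fold above PA2 for Hba-x, 6.54- to 12.6-fold for Hbb-y, 7.03- to 10.8-fold for Alas2 and 5.42- to 9.47-fold for Gata1. With genotype and number as a block in edgeR's fit, 7 of 7 members were again called in each genotype.

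In the dissected arches, where the globins stood far above 0.5 CPM, a ratio of 2 globins within a library is little affected by their summed level. With 0.5 CPM added to each side, 2 such ratios were compared over 14 contrasts in both tables. The size of the Hba-x to Hba-a1 ratio is uncertain, since the counting of reads shared by Hba-a1 and Hba-a2 is not known. Hba-x stood to Hba-a1 at 3.43, 3.13 and 3.57 in PA2 WT, at 3.19, 3.34 and 2.66 in PA2 HIRE1del, at 2.97, 3.05 and 2.95 in PA3 WT and at 3.06, 3.25 and 3.09 in PA3 HIRE1del. The PA3 WT ratios lay below those of PA2 WT and of PA3 HIRE1del without overlap, but by small amounts: the log2 differences were -0.17 for PA3 WT against PA2 WT and 0.07 for PA3 HIRE1del against PA3 WT. Each had p = 0.1 in the exact two-sided permutation test, the smallest that 3 against 3 libraries allow (0.233 after Benjamini-Hochberg adjustment over the 14 comparisons). No comparison of this size can reach 0.05.

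Hbb-y stood to Hbb-bh1 at 7.74, 5.79 and 5.04 in PA2 WT, at 5.95, 6.37 and 5.41 in PA2 HIRE1del, at 6.80, 5.73 and 6.25 in PA3 WT and at 6.55, 5.71 and 5.20 in PA3 HIRE1del. The groups overlapped in each of the 4 comparisons, with log2 differences from -0.11 to 0.04 and exact permutation p of 0.4 to 1. The highest value in WT of either arch was that of replicate 1, which also had the lowest Hbb-y and Hbb-bh1 levels. In PA2 HIRE1del, replicate 2 had both the highest ratio and the lowest levels. In PA3 HIRE1del the highest ratio was that of replicate 1, which had the highest Hbb-y level, so the groups did not share 1 pattern.

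The other globin rows were Hbb-b1, Hbb-bt, Hbb-bh2, Hbq1a and Hbq1b, of which 4 passed the filter and 4 of 4 were called higher in PA3 in each genotype (median log2 fold change 3.47 in WT and 3.24 in HIRE1del). The row Hbb-b1 carries the Ensembl identifier that GENCODE M21 names Hbb-bs, an adult beta globin. Of the 50-base windows of Hbb-bt transcripts 58.3% also occur in Hbb-bs transcripts, so the division of reads between these 2 rows is uncertain. Hbb-b1 was at 2.21, 6.98 and 5.45 CPM in PA2 WT and at 75.3, 223 and 150 CPM in PA3 WT, and at 2.67, 2.34 and 8.72 CPM in PA2 HIRE1del and 108, 58.3 and 116 CPM in PA3 HIRE1del. In log2 units this is 4.92 ± 0.52 in WT (adjusted p = 1.37e-05 by edgeR) and 4.35 ± 0.52 in HIRE1del (4.06e-05), or 30.2-fold and 20.4-fold. Hbb-bt, the other adult row, was 11.0-fold and 9.51-fold higher in PA3.

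In a comparison chosen after these values were seen, the sum of the adult rows Hbb-b1 and Hbb-bt was set against the sum of the embryonic rows Hbb-y and Hbb-bh1. The ratio was 0.00711, 0.0133 and 0.0150 in PA2 WT and 0.0190, 0.0277 and 0.0287 in PA3 WT. It was 0.00926, 0.00814 and 0.0140 in PA2 HIRE1del and 0.0158, 0.0145 and 0.0194 in PA3 HIRE1del. The adult rows thus held a small part of the counted beta globin RNA in all 12 libraries. Of the 50-base windows, 58.3% in Hbb-bt and 53.2% in Hbb-bs transcripts are shared between these genes, against 0% in Hbb-y and Hbb-bh1. How such reads were counted is not known, so the adult sum may be too low and the size of the ratio is uncertain. The ratio was larger in PA3 than in PA2 without overlap in either genotype. In each genotype p was 0.1 (exact permutation, two-sided), the smallest that 3 against 3 libraries allow (0.175 after Benjamini-Hochberg adjustment over 7 comparisons of this ratio), and since the comparison was chosen from these values the p is not independent support.

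**Figure D4:**
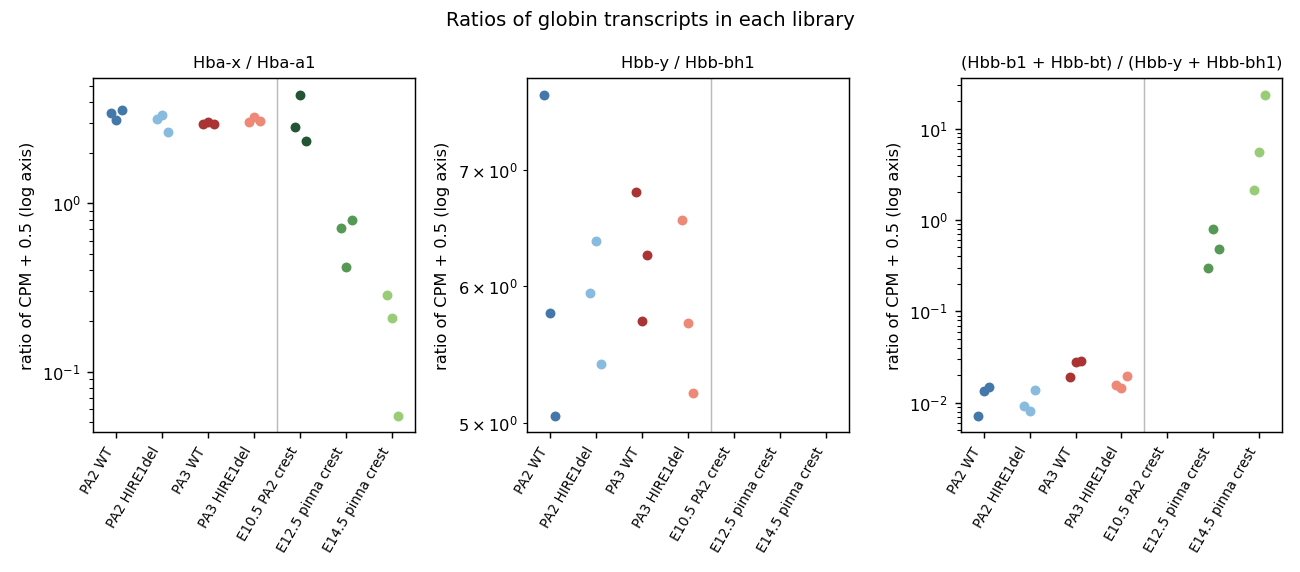
Ratio of globin levels (CPM with 0.5 added, log axis) in each library, 3 points a group, for Hba-x to Hba-a1 (left), Hbb-y to Hbb-bh1 (middle) and adult-type to embryonic beta globins (right). Groups with at most 1 count in a whole side of the ratio are left out. The Hba-x to Hba-a1 ratio lies between 2.66 and 3.57 in the 12 libraries of dissected arches and between 0.0543 and 0.287 in the sorted cells of E14.5.

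Other genes of the red cell moved between arches with the members. These lists were chosen with earlier results known and are given as counts. The shares of all genes tested called higher and lower in PA3 were 19.1% and 17.4% in WT, and 18.7% and 14.7% in HIRE1del. Of 18 red cell membrane genes, 18 were called higher in PA3 in WT and 18 in HIRE1del, with a median log2 fold change of 2.97 and 3.09. Slc4a1, the band 3 anion exchanger, was 8.90-fold higher in PA3 of WT (edgeR adjusted p = 1.72e-06), the beta-spectrin gene Sptb 4.30-fold (1.01e-07), and Epb41, the protein 4.1 gene that other cells also use, 1.13-fold (0.0151). Of 13 heme synthesis genes, 11 were called higher in WT and 10 in HIRE1del, and 0 lower (median log2 1.41 in each). The mitochondrial iron importer Slc25a37 was 5.95-fold higher in PA3 of WT (8.72e-07) and the general heme enzyme gene Alad 2.67-fold (6.21e-05), both smaller values than that of Alas2. Of 12 further erythroid genes tested, 11 were called higher in each genotype, among them the carbonic anhydrase Car2 (6.35-fold in WT), Bpgm, which makes the hemoglobin ligand bisphosphoglycerate (2.43-fold), and the transferrin receptor Tfrc (1.76-fold). Of 14 erythroid transcription factors, 9 were called higher and 2 lower in WT, and 8 higher and 3 lower in HIRE1del, with median log2 fold changes of 0.78 and 0.80. Tal1 (6.41-fold) and the Gata1 partner Zfpm1 (4.70-fold) were higher in PA3 of WT, and Bcl11a, a repressor of embryonic globins that neurons also express, was lower (1.44-fold, edgeR adjusted p = 0.0191). Between HIRE1del and WT, 0 genes of these lists were called in either arch.

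Markers of other cells that come with blood or line it moved less than the members (median log2 fold change 3.09 in WT and 3.13 in HIRE1del). Among all genes tested, 19.1% were called higher in PA3 of WT and 18.7% in HIRE1del. Of the 5 megakaryocyte and platelet genes that passed the filter, 5 were called higher in PA3 in each genotype. Their medians were 2.04 in WT and 1.73 in HIRE1del, above those of the heme synthesis genes (1.41 in each). The summed level of the 10 listed ones was 6.93 to 11.6 CPM (WT) and 7.97 to 11.5 CPM (HIRE1del) in PA2, and 28.3 to 48.2 CPM (WT) and 23.3 to 40.6 CPM (HIRE1del) in PA3, with Pf4 at 0 in PA2 WT and Gp1ba at 0 in PA3 HIRE1del. Of 13 macrophage genes tested, 1 (Lyz2) was called higher in each genotype, and the summed level of 14 listed ones was 44.8 to 49.2 CPM (WT) and 37.8 to 64.4 CPM (HIRE1del) in PA2, and 59.2 to 64.2 CPM (WT) and 49.7 to 67.6 CPM (HIRE1del) in PA3. Aif1 was at 0 in PA2 WT and in both HIRE1del groups. Of 12 endothelial genes, which line vessels, 7 were called higher in WT and 6 in HIRE1del, by small amounts (median log2 0.34 and 0.25, Cdh5 1.41-fold in WT), and the sum of 13 listed ones was 384 to 404 CPM (WT) and 396 to 400 CPM (HIRE1del) in PA2, and 466 to 497 CPM (WT) and 452 to 481 CPM (HIRE1del) in PA3, with Cldn5 at 0 in each. Their part in the arch difference of the globins was not tested.

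Some markers of cells outside the blood were also called between the arches. Of all genes tested, 19.1% were called higher and 17.4% lower in PA3 of WT, and 18.7% and 14.7% in HIRE1del. The lists are short, so their counts are a description. Of 10 epithelial genes 7 were called higher in PA3 in each genotype (sum 322 to 366 CPM (WT) and 302 to 330 CPM (HIRE1del) in PA2, and 662 to 844 CPM (WT) and 538 to 729 CPM (HIRE1del) in PA3). Of 5 tested endoderm and liver serum protein genes, 5 were called higher in WT and 3 in HIRE1del. Their summed level was 19.1 to 21.95 CPM (WT) and 16.0 to 20.6 CPM (HIRE1del) in PA2, and 43.8 to 492 CPM (WT) and 31.4 to 58.4 CPM (HIRE1del) in PA3, with Ttr at 0 in PA2 WT and Alb at 0 in both HIRE1del groups. Of 12 neural crest mesenchyme genes, 1 was called higher and 7 lower in PA3 of WT, and 2 higher and 7 lower in HIRE1del. Of 7 arch muscle genes, 1 was called higher and 3 lower in WT, and 0 higher and 2 lower in HIRE1del, and their sum was 43.2 to 48.7 CPM (WT) and 35.1 to 39.0 CPM (HIRE1del) in PA2, and 24.6 to 37.0 CPM (WT) and 24.6 to 30.3 CPM (HIRE1del) in PA3. The part of these differences in the globin levels was not tested.

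The genes whose pattern over the 12 genotype libraries was most like the summed globins included, by Pearson r of log2 CPM, Pdzk1ip1 (0.998), Slc4a1 (0.998), Rhd (0.998), Acp5 (0.997), Adra2b (0.996), Epor (0.996), Car2 (0.996), Hemgn (0.996) and Tal1 (0.996). Of these genes, those of the red cell surface proteins Slc4a1 and Rhd, the erythropoietin receptor gene Epor, Car2, Hemgn and Tal1 were on the lists above, while Pdzk1ip1, Acp5 and Adra2b were not. The libraries fall into 2 arches that are far apart, so such an r describes mainly that gap, and 328 of 14376 other genes had an r above 0.95.

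In the sorted neural crest cells, all the members were low. At E10.5 Hba-x had 36, 112 and 42 counts (1.20, 3.84 and 1.37 CPM), Hbb-y 14, 84 and 24 counts (0.468, 2.88 and 0.784 CPM), Hba-a1 3, 14 and 9 counts, Klf1 14, 7 and 11, Alas2 2, 5 and 6, Hbb-bh1 0, 1 and 0, and Gata1 0 in each of the 3 libraries. For Gata1 this allows a level of up to 0.0980 to 0.103 CPM in a library (3 counts), with counting error only. Dissected PA2 of WT at the same stage held 698 ± 140 CPM of Hba-x (SD, n = 3), against 2.14 ± 1.48 CPM in the sorted cells, and 856 ± 221 against 1.38 ± 1.31 CPM of Hbb-y. Set side by side, the means stood 326-fold apart for Hba-x, 621-fold for Hbb-y, 716-fold for Hba-a1, 265-fold for Alas2 and 16.5-fold for Klf1. The tables were normalized separately and differ in sorting, single-end or paired-end reads and sequencer, which cannot be told apart, so no test was made.

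Because of these low counts, 3 of the 7 members (Hba-x, Hba-a1 and Hbb-y) passed the filter of 1 CPM in at least 2 libraries, each through the stages where it was highest: Hba-x through the 3 libraries of E10.5 and 1 of E12.5, Hba-a1 through the 3 of E14.5 and 1 of E12.5, and Hbb-y through 2 of E12.5 and 1 of E10.5. The calls of these members are therefore not independent of the filter, and values from a fit without it, in which all 7 members and 19355 genes were tested, are given beside them. Hba-x fell from E10.5 through E14.5. It was at 1.337, 0.0653 and 0.544 CPM at E12.5 and at 0.0220, 0.105 and 0.0876 CPM (1, 5 and 4 counts) at E14.5, so that the E14.5 libraries lay below those of E10.5 without overlap. The log2 fold change from E10.5 to E14.5 was -4.82 ± 0.88 (SE, n = 3 against 3, edgeR adjusted p = 0.00034), and -4.10 without E10.5 PA2 crest replicate 2. In the fit without the filter it was -4.86 (edgeR adjusted p = 6.22e-05), with -3.11 (0.00698) from E12.5 to E14.5 and -1.75 (0.0353) from E10.5 to E12.5. From E12.5 to E14.5 it was -3.08 ± 0.97 (adjusted p = 0.0160, ranges overlapping), and from E10.5 to E12.5 -1.74 ± 0.70 (adjusted p = 0.0444), where the ranges overlapped as well. The last of these calls was lost without E10.5 PA2 crest replicate 2 (log2 -1.02), without E12.5 pinna crest replicate 2 (-1.19) or without replicate 3 of E12.5 (-1.63), and with the replicate number as a block (-1.68, edgeR adjusted p = 0.0936), while without E12.5 pinna crest replicate 1 the value was -2.81. The call from E12.5 to E14.5 was lost without E12.5 pinna crest replicate 1 (-2.01) and without E14.5 pinna crest replicate 1 (-2.67).

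Hba-a1, the adult alpha row, went the other way. It was at 0.1004, 0.480 and 0.294 CPM at E10.5, at 2.08, 0.849 and 0.816 CPM at E12.5 and at 1.32, 2.42 and 10.3 CPM at E14.5. The E14.5 libraries lay above those of E10.5 without overlap, with a log2 difference of 3.99 ± 0.84 (adjusted p = 0.00094 by edgeR), and without E14.5 pinna crest replicate 3, the highest, it was still called (log2 2.68, edgeR adjusted p = 0.00120). Between E12.5 and E14.5 the ranges overlapped and the log2 fold change was 1.92 ± 0.70 (adjusted p = 0.0317). That call was lost without E14.5 pinna crest replicate 3 (log2 0.60, adjusted p = 0.304), without E12.5 pinna crest replicate 2 (1.70) or replicate 3 (1.68), and with the replicate number as a block (1.49, adjusted p = 0.106). Between E10.5 and E12.5 it was 2.08 ± 0.90 and not called (adjusted p = 0.0595), although the ranges were apart. Without the filter the log2 values were 3.95 from E10.5 to E14.5 (edgeR adjusted p = 0.000177), 1.89 from E12.5 to E14.5 (0.0178) and 2.07 from E10.5 to E12.5 (0.0393), so that the last was called there.

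Hbb-y was at 5.496, 0.816 and 2.18 CPM at E12.5 and at 0.595, 0.294 and 0 CPM (27, 14 and 0 counts) at E14.5. It was lower at E14.5 than at E12.5 without overlap, with a log2 value of -3.23 ± 0.95 (adjusted p = 0.0112 by edgeR), and leaving out E12.5 pinna crest replicate 1 ended this call (-2.32, edgeR adjusted p = 0.0570), while without E14.5 pinna crest replicate 1 the value was -4.20. From E10.5 to E12.5 its log2 fold change was 1.03 ± 0.85 (adjusted p = 0.296), and from E10.5 to E14.5 -2.20 ± 0.98 (adjusted p = 0.0555), with overlapping ranges in both. Without the filter the log2 values were -3.25 from E12.5 to E14.5 (edgeR adjusted p = 0.00482), -2.23 from E10.5 to E14.5 (0.0341), which was called there, and 1.02 from E10.5 to E12.5 (0.298).

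The 4 members under the filter were at 0 to 55 counts in each sorted library. Alas2 had 9, 3 and 1 counts at E12.5 and 15, 22 and 55 counts at E14.5 (0.330, 0.463 and 1.20 CPM), and in a fit without the filter it was higher at E14.5 than at E12.5 (log2 2.08, edgeR adjusted p = 0.0203). Klf1 had 7, 12 and 12 counts at E12.5 and 4, 2 and 13 at E14.5, Gata1 1, 0 and 0 and then 0, 5 and 0, and Hbb-bh1 0 in each of the 6 pinna libraries. The adult beta rows were at 0 counts in the 3 libraries of E10.5. Hbb-b1 had 30, 9 and 20 counts at E12.5 and 62, 145 and 380 at E14.5 (1.37, 3.05 and 8.32 CPM), which is at least 6.93-fold and at least 42.3-fold above a floor of 3 counts in each E10.5 library. Hbb-bt had 5, 8 and 3 counts at E12.5 and 20, 41 and 135 at E14.5, at least 1.82-fold and at least 14.1-fold above that floor. Without E14.5 pinna crest replicate 3 the E14.5 limits were at least 21.97-fold for Hbb-b1 and at least 6.48-fold for Hbb-bt.

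**Figure D5:**
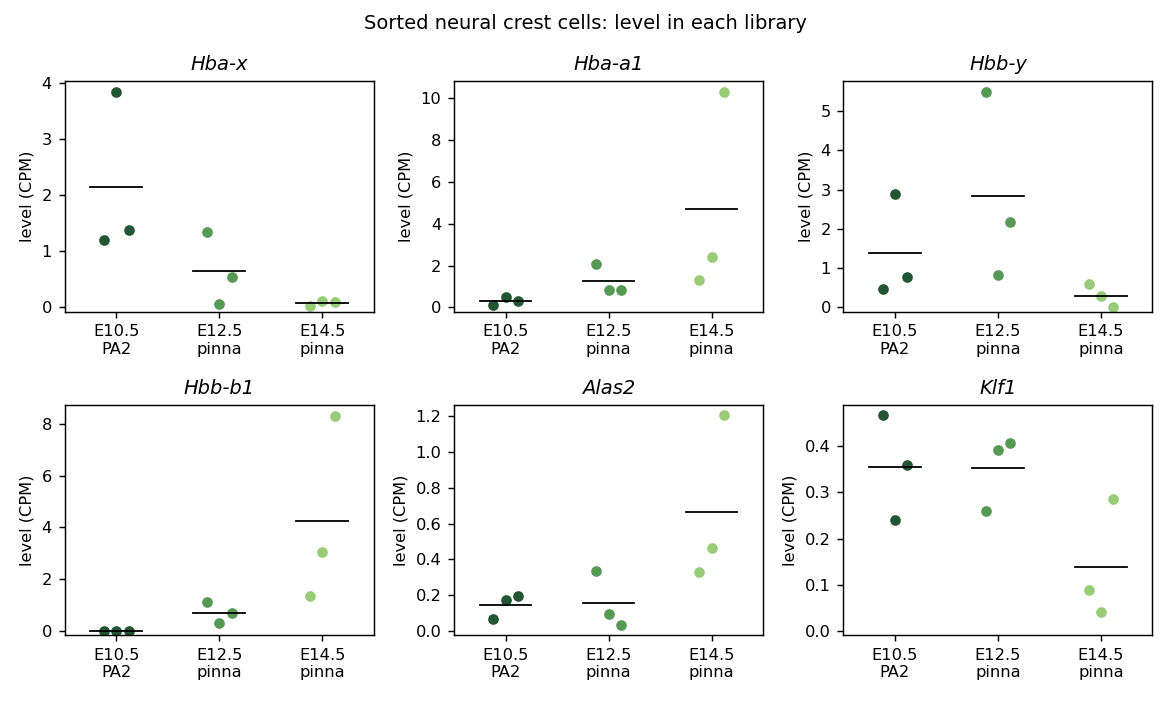
Level in CPM (vertical axes from 0, different for each gene) of 6 red cell genes in the sorted neural crest libraries of E10.5 PA2, E12.5 pinna and E14.5 pinna, 3 points a stage with a bar at the mean. Hba-x is highest at E10.5 (1.20 to 3.84 CPM), while Hba-a1, Hbb-b1 and Alas2 are highest at E14.5, each in replicate 3.

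Counted over the members tested, 1 of 3 was called lower and 0 higher from E10.5 to E12.5, 2 lower (Hba-x and Hbb-y) and 1 higher (Hba-a1) from E12.5 to E14.5, and 1 lower (Hba-x) and 1 higher (Hba-a1) from E10.5 to E14.5. Of all 13438 genes tested, 35.0% were called higher and 33.7% lower in the first of these comparisons, 32.6% and 33.1% in the next, and 42.0% and 40.0% in the last, so calls at these stages were common. The members counted passed the filter through the stage where they were high, so the counts are a description. The summed globin rows were 1.77, 7.24 and 2.45 CPM at E10.5, 8.91, 1.73 and 3.53 CPM at E12.5 and 1.94, 2.82 and 10.4 CPM at E14.5, with overlap among the stages. The libraries with the highest sum were thus E10.5 replicate 2, E12.5 replicate 1 and E14.5 replicate 3. The biological coefficient of variation was 0.806 for Hbb-y, 0.623 for Hba-x and 0.588 for Hba-a1, against a median of 0.0844.

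The counts of Hba-x and Hba-a1 in the same library were 36 and 3, 112 and 14, and 42 and 9 at E10.5, 36 and 56, 2 and 26, and 16 and 24 at E12.5, and 1 and 60, 5 and 115, and 4 and 471 at E14.5. The ratio of Hba-x to Hba-a1 in CPM was 2.84, 4.43 and 2.36 at E10.5, 0.712, 0.419 and 0.793 at E12.5 and 0.287, 0.207 and 0.0543 at E14.5 (0.5 CPM added to each side). No library of a later stage reached one of an earlier stage. The mean log2 ratio differed by -2.32 from E10.5 to E12.5, by -2.07 from E12.5 to E14.5 and by -4.39 over the whole interval, each with p = 0.1 in the exact two-sided permutation test, the smallest possible, and 0.233 after adjustment over the 14 comparisons. With 2 CPM added in place of 0.5 the differences from E10.5 were -1.101 (E12.5) and -2.25 (E14.5), since the levels are near the added amount, which sets much of the size of these ratios. The ratio of Hbb-y to Hbb-bh1 rests on 0 or 1 counts of Hbb-bh1 in each sorted library and is set by the added 0.5 CPM. Its log2 difference was -1.87 from E12.5 to E14.5 (exact permutation p = 0.1), 0.81 from E10.5 to E12.5 (p = 0.4) and -1.06 from E10.5 to E14.5 (p = 0.2).

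Among the other erythroid lists, calls between stages went in both directions, as they did among all genes tested. Of all genes, 42.0% were called higher and 40.0% lower from E10.5 to E14.5. The shares were 35.0% and 33.7% from E10.5 to E12.5, and 32.6% and 33.1% from E12.5 to E14.5. The list counts are therefore a description and not a trait of erythroid genes. From E10.5 to E14.5, 4 of 9 tested red cell membrane genes were called higher and 3 lower, 4 and 5 of 13 heme synthesis genes, 3 and 4 of 8 further erythroid genes, and 5 and 4 of 11 erythroid transcription factors, with medians of 0.39, 0.03, 0.06 and 0.09 log2 units. From E10.5 to E12.5 the counts higher and lower were 1 and 2 for red cell membrane genes, 4 and 6 for heme synthesis genes, 3 and 3 for further erythroid genes and 4 and 4 for transcription factors. From E12.5 to E14.5 they were 5 and 3, 2 and 4, 4 and 3, and 5 and 4. Among the genes called, the water channel Aqp1 was 141-fold higher at E14.5 than at E10.5 (edgeR adjusted p = 1.96e-12) and Zfpm1 4.45-fold higher (2.18e-08). Epb41 was 2.58-fold lower (9.82e-10), Tfrc 3.27-fold lower (2.69e-06) and Myb 8.28-fold lower (1.06e-09). Which cells these RNAs came from was not tested. Of the 18 red cell membrane genes found, Cldn13, Epb42, Kel and Rhag were at 0 counts in the E10.5 libraries. Only Cldn13 and Rhag were at 0 at E12.5 and E14.5, and the others had counts there.

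Markers of other cells in the sorted libraries moved in both directions between the stages, at which 42.0% of all genes tested were called higher and 40.0% lower from E10.5 to E14.5. The summed endothelial markers were 18.6 to 22.6 CPM at E10.5, 27.6 to 42.4 at E12.5 and 124 to 186 at E14.5 (4 of 10 tested genes called higher and 1 lower from E10.5 to E14.5, Cldn5 at 0 in each stage). The macrophage markers were 5.35 to 6.28, 4.27 to 5.27 and 8.97 to 14.6 CPM (2 of 2 called higher, Aif1 at 0 in each stage and Tyrobp at 0 at E12.5). The megakaryocyte and platelet markers were 0.850 to 0.903, 1.08 to 2.01 and 2.18 to 3.59 CPM (1 of 1 called higher), with Pf4, Gp1ba, Gp1bb, Ppbp and Treml1 at 0 in each stage. Epithelial markers were 11.9 to 14.1, 12.1 to 15.4 and 30.6 to 56.6 CPM (5 of 7 called higher and 2 lower), arch muscle markers 0.401 to 1.06, 2.23 to 3.49 and 0.757 to 1.2996 CPM (0 of 2 called, Tbx1 at 0 in each stage), and liver serum protein genes 20.7 to 23.8, 3.53 to 5.87 and 4.27 to 6.22 CPM (2 of 2 called lower, Ttr at 0 at E12.5 and Afp at 0 at E14.5). The neural crest markers were 1932 to 2228, 4039 to 4276 and 4062 to 4443 CPM (6 of 12 called higher and 5 lower). The enzyme used to dissociate the tissue changed from trypsin to papain between E12.5 and E14.5, and its part and that of these cells in the globin values were not tested.

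Over the 9 sorted libraries the genes most like the summed globins were 2310061I04Rik (Pearson r = 0.890), Brme1 (0.890), Vars2 (0.875), Ppp1r10 (0.849), Ppp1r18 (0.829), Pld6 (0.824), Pex6 (0.816), Atp6v0a4 (0.810), Mbd6 (0.808) and Elmo2 (0.807). None of these 10 was on a list of red cell or other marker genes, and 0 of 13435 genes had an r above 0.95.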

How the data were processed

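Gene counts of 21 libraries were analysed, 12 of dissected arches and 9 of sorted neural crest cells. The authors deposited the counts without normalization. They aligned the reads (50 bases, paired-end for arches and single-end for sorted cells) to GRCm38/mm10 with QuasR and counted them over UCSC known gene exons. Per the labels the libraries were unstranded. The submitters' processing notes name bcl2fastq 2.17 and 2.20. How reads that fit several places were treated is not given in the sources used here. The deposited column of exonic bases, in no normalized unit (score), served only to divide by length. In R 4.3.3 with edgeR 4.0.16, genes had to reach 1 CPM in 2 or more libraries, TMM factors scaled the totals, and each table was fitted with a mean for each group by the quasi-likelihood test (two-sided). Intervals are 95% and use the residual degrees of freedom. Totals were 25.8 to 49.1 M counts per library, and floors cover counting error only. A group at 0 was set against a floor of 3 counts in each library. The fits were tested on simulated data.

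The planned ratio of Hba-x to Hba-a1 plus Hba-a2 was taken over the row Hba-a1 alone. The members and the lists were chosen with earlier results of these data known. Named genes were the members, list genes called with the largest average CPM (up to 3 a list), the 10 genes most like the summed globins, and Hoxa2, less a few items that are not reported here. Adult beta globins, Lyz2 and genes at 0 counts were named after their values were seen. Replicates were not copies of each other (chi-square per degree of freedom 7.11 to 50.5). Same-numbered PA2 and PA3 libraries deviated together from their group means over all genes (r = 0.382, 0.230 and 0.248 in WT, 0.213, 0.284 and 0.342 in HIRE1del), and were taken to share a pool of embryos in 1 alternative. Between libraries of different genotype r ran from -0.312 to 0.293, so these r do not settle whether embryos were shared. Alternatives were DESeq2 1.42.0 size factors, total counts, no filter, filterByExpr, the DESeq2 and limma-voom (limma 3.58.1) tests, replicate blocks, the 6 libraries of a contrast alone, each library left out, and 2 CPM in place of 0.5 CPM in ratios.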

Additional observations from a re-analysis of the deposited data

How the results depend on the processing

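Among the members, 669 values were recomputed under the alternatives: 648 kept their direction and side of the threshold or stayed without a call, 15 lost a call, 6 gained one and 0 reversed. Of the 370 values without a call in either fit, 57 had another sign. For the arch comparisons, 7 of 7 members stayed called under each alternative, the embryo pool block included, with log2 fold changes of 2.50 to 3.57 in WT and 2.84 to 3.67 in HIRE1del, and for the HIRE1del comparisons and their difference 0 members were called under any (lowest edgeR, DESeq2 or limma adjusted p 0.507). The stage calls were less stable. From E10.5 to E12.5 the number of members called was 1, and it was 0 by total counts only, 0 with the replicate block, 0 in the 6 libraries alone, 2 without the filter and 2 by DESeq2, and 0 to 1 when a library was left out. From E12.5 to E14.5 it was 3, and 1 by limma-voom and 1 to 3 when a library was left out. From E10.5 to E14.5 it was 2, and 4 without the filter and 4 by filterByExpr, which test more members (7 and 5). The replicate numbers did not pair the stage libraries (r = -0.312 to 0.202). In the ratios, 2 CPM in place of 0.5 CPM moved the log2 difference of Hbb-y to Hbb-bh1 from E12.5 to E14.5 to -0.96 and those of Hba-x to Hba-a1 to -1.101 (E10.5 to E12.5) and -2.25 (E10.5 to E14.5). The cause of other changes was not tested. Of the 10 genes most like the globins by Pearson r, 3 (dissected arches) and 5 (sorted cells) were also among the 10 by Spearman rho. In a sorted library 3 counts, the floor set against a group at 0, are 0.0631 to 0.111 CPM, and 4 of 7 members did not pass the CPM filter there. The limits of Hbb-b1 and Hbb-bt without each library were added after the data were seen.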
